A study of Gallus gallus with 2 samples.

Results

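Collagens, laminins and integrins are the gene families that build the extracellular matrix and the receptors with which cells hold on to it. They were followed here across the cell classes of the tail end of chicken embryos. The members were taken by symbol, as every gene column named as a collagen alpha chain (COL, number, A, number), a laminin chain (LAM followed by A, B or C) or an integrin alpha or beta chain. This gave 64 of 28190 gene columns, namely 33 collagens, 12 laminins and 19 integrins, of which 11 were alpha and 8 beta chains. Together the members held 0.244% of the molecules of the cells used. COL2A1 and ITGAL were among the genes of these families not analysed here.

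Collagens are secreted as trimers of chains. The fibrillar types form the cables of connective tissue, while type IV chains form the sheet of the basement membrane. Laminins are trimers of an alpha, a beta and a gamma chain and are the other main polymer of that sheet. Integrins are dimers of an alpha and a beta chain that bind laminins, collagens, fibronectin and related ligands outside the cell and link them to the actin cytoskeleton inside it. In the embryonic tail, basement membranes surround the neural tube, the notochord, the somites, the surface ectoderm and the gut, and the notochord in addition wraps itself in a thick collagen sheath.

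The tissue was the posterior end of wild-type embryos taken at 72 h, when 35 somites had formed. Some embryos were controls and others were given homocysteine in a volume of 20 uL, as a high dose (19 mM) or as a low one (0.5 mM). The tissue was dissociated with Accutase, an enzyme mixture, for 15 min at 37 °C, the cells of each tissue (250000) were tagged with a lipid-anchored DNA barcode at 200 nM, and all cells were pooled before capture and sequencing of 1 transcriptome library and 1 library of lipid barcodes. No label ties a barcode to a treatment, so control and treated embryos could not be compared, there were no replicates, and no test was possible. Embryos were pooled and the age, genotype and dissociation were shared by all cells. Enzymes used to free cells act on the matrix proteins themselves, but the values here are of RNA.

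Of 60000 cell barcodes, 12336 passed the limits of at least 4000 gene molecules, at least 500 genes and at most 20% mitochondrial molecules. Their median was 29896 molecules and 6116 genes. They formed 32 clusters, grouped without use of the member genes. By their marker genes 27 clusters were joined into 14 classes, and 5 clusters, with 15.4% of the cells, stayed unnamed and are called by a leading gene, which gave 19 groups. A level is the number of molecules of a gene per 1000000 molecules of the group (CPM). The 95% intervals in parentheses are exact Poisson intervals and cover counting error only. A member was evaluated where its highest group held at least 50 molecules, and it was counted as restricted where that group was at least 4-fold above the median group. Each class was set against its markers. All 9 surface ectoderm markers, all 10 endothelium markers, all 9 macrophage markers and 7 of 8 notochord markers were at least 2-fold above the median group in their class. Only 4 of 6 markers were that high in the presomitic mesoderm-like class, and 4 of 6 in the neural crest-like class. In the neural crest-like class, WNT1 and ZIC1, genes of the dorsal neural tube, stood among the 10 leading genes beside SOX10. Summed neural crest markers were at 672 CPM in that class but at 1172 CPM in the endothelium-like class, so this sum does not single out the neural crest-like class. The summed surface ectoderm markers were at 2431 CPM in the surface ectoderm-like class, but at 2938 CPM in the hindgut endoderm-like and 2290 CPM in the lateral plate or splanchnic mesoderm-like class, so this sum does not set these classes apart, and its part in the levels they share was not tested. Shares of cells with a molecule rise with depth and were compared after thinning each cell to 4000 molecules. Cells of 2 types caught under 1 barcode were not removed.

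The families were not spread evenly over the tissue. Of the 64 members, 55 passed the minimum of 50 molecules and 34 were restricted, whereas 24.6% of all 12671 genes evaluated were restricted. Of the members evaluated, 19 of 28 collagens (67.9%), 5 of 11 laminins (45.5%) and 10 of 16 integrins (62.5%) were restricted. The minimum has to be met in the highest group, so these counts describe the members and do not test them. For 6 of the 34 (COL26A1, COL6A1, ITGA11, ITGA3, LAMB3 and LAMC3) the interval of the ratio reached below 4. The highest group's interval stood clear of the second group's for 37 of the 55 members. The same share over all genes is not given here, so this count does not set the members apart. With at most 10% mitochondrial molecules, a limit that left 17 of 129 notochord-like and 2 of 60 macrophage-like cells, the counts were 10 collagens, 2 laminins and 3 integrins.

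Summed over each family, the notochord-like class carried the most collagen message, the surface ectoderm-like class the most laminin message and the endothelium-like class the most integrin message. Summed collagens reached 3344 CPM (3292 to 3398) in the notochord-like class, 2362 CPM in the lateral plate or splanchnic mesoderm-like class and 1649 CPM in the surface ectoderm-like class. The median group was at 1045 CPM and the erythroid-like class lowest at 314 CPM. The collagen sum was therefore 3.20-fold above the median at its highest, a wider range than for the other families. By name, the notochord-like class was first for this sum under 8 of 17 alternative settings. Summed laminins ran from 99.5 CPM in the erythroid-like class to 523 CPM (517 to 529) in the surface ectoderm-like class, 1.67-fold above the median. Summed integrins ran from 324 CPM in the erythroid-like class to 1459 CPM (1439 to 1479) in the endothelium-like class, 1.78-fold above the median. By name, the surface ectoderm-like class was first for the laminin sum under 14 of the 17 settings. The endothelium-like class was first for the integrin sum under 12 of them. With each cluster taken by its number no class name could match, so these counts take that setting as a change. The first clusters there belonged to the same classes, the CHRD-led for collagens, the CBLN2-led for laminins and the CDH5-led for integrins. With each cell thinned to 4000 molecules the macrophage-like class was first for integrins. With at most 10% mitochondrial molecules or SBC7 alone it was the surface ectoderm-like class.

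**Figure D1:**
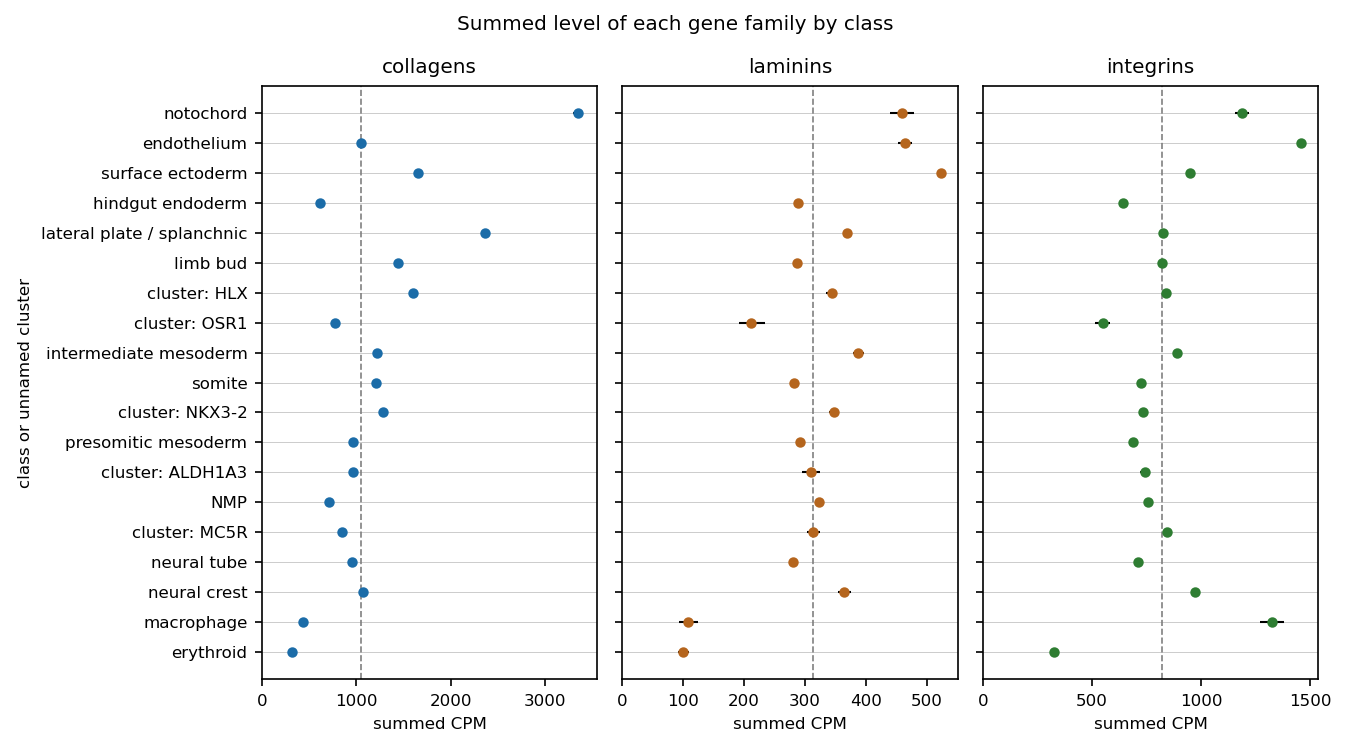
Summed level of all collagen, laminin and integrin columns (CPM, from 0) in each of 19 groups, as points; bars are exact Poisson 95% intervals and the dashed line is the median group. Collagens stand out in the notochord-like class at 3344 CPM, laminins in the surface ectoderm-like class at 523 CPM and integrins in the endothelium-like class at 1459 CPM.

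The notochord-like class, 129 cells with CHRD as leading gene, was the highest group for 13 of the 55 members evaluated (23.6%), while 6.85% of all genes were highest there. Of these, 10 were collagens, from the basement membrane, network, fibril-associated and fibrillar types. At least 2-fold above the median group here were 16 members, against 9.72% of genes. Progenitor markers, whose list shares TBXT with the notochord list, summed to 2723 CPM in this class and to 1675 CPM in the neuromesodermal progenitor-like class, and their part in the levels was not tested.

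COL8A1 encodes a chain of type VIII collagen, a short-chain collagen that forms open networks, and lies on chromosome 1 (GRCg7b, 84511722 to 84600852, RefSeq). Its level was 600 CPM (578 to 623) in the notochord-like class, 53.5 CPM in the NKX3-2-led cluster, 11.1 CPM in the median group and 2.90 CPM in the macrophage-like class. The notochord-like level was thus 54.0-fold (47.8 to 61.2) above the median, and no other group came near it. After thinning, 41.1% of notochord-like cells held a COL8A1 molecule, against 14.1% in the NKX3-2-led cluster and 2.11% of erythroid-like cells. Without thinning the notochord-like share was 65.9%. COL8A1 was itself among the 10 leading genes of this cluster, although it was left out of the clustering. Its partner chain COL8A2 was at 104 CPM (94.5 to 113) in the notochord-like class, 52.3 CPM in the surface ectoderm-like class and 12.5 CPM in the median group, and lowest at 3.35 CPM in the limb bud mesenchyme-like class. COL8A2 was also at least 2-fold above the median group in the surface ectoderm-like, hindgut endoderm-like and neuromesodermal progenitor-like classes and in the MC5R-led cluster. COL8A1 was not that high in any of these, and was at 6.56 CPM in surface ectoderm-like cells.

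Type IX collagen, which decorates cartilage-type fibrils, and type XI, which sits inside them, showed the same place of highest level. COL9A1 was at 69.0 CPM (61.7 to 77.0) in the notochord-like class, 18.8 CPM in the surface ectoderm-like class and 3.59 CPM in the median group. COL9A2 was at 193 CPM (181 to 207) in the notochord-like class, 38.6 CPM in the presomitic mesoderm-like class and 16.0 CPM in the median group. Both chains were highest in the notochord-like class by 19.2-fold and 12.1-fold over the median. The third chain, COL9A3, differed from these because it had 2 high groups, the notochord-like class at 88.8 CPM (80.5 to 97.8) and the neural crest-like class at 80.2 CPM, whose intervals overlapped. In the median group COL9A3 stood at 1.16 CPM from 2 molecules, which gives a ratio of 76.5 with a counting interval of 21.0 to 634. COL11A1 was at 350 CPM (333 to 367) in the notochord-like class, 40.6 CPM in the neural crest-like class, 20.7 CPM in the median group and 7.55 CPM in the macrophage-like class. Across the 19 groups the member most like COL9A2 was COL11A1 (Pearson r of log2(CPM + 1) 0.88, a description over groups that share 1 library).

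The basement membrane collagens fell into 2 patterns along the chain pairs in which they are known to assemble. COL4A1 was at 279 CPM (264 to 295) in the notochord-like class, 128 CPM in the endothelium-like class, 40.7 CPM in the neural crest-like class, 17.4 CPM in the median group and 7.26 CPM in the erythroid-like class. COL4A2 was at 144 CPM (133 to 155), 62.3 CPM and 16.0 CPM in the same 3 classes, 10.6 CPM in the median group and 3.11 CPM in the erythroid-like class. The pair thus marked the notochord-like and endothelium-like classes together. Over the 19 groups their log2 levels had a Pearson r of 0.97, and the ratio of COL4A1 to COL4A2 stayed between 1.0 and 2.54. They are neighbours on chromosome 1 (COL4A1 138807413 to 138920608, COL4A2 138919708 to 139061817) whose RefSeq spans overlap by 901 bases, and how the counting assigned reads in that overlap is not given in the sources used here.

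COL4A5 and COL4A6, the chains of another type IV network, were spread over other cells. COL4A5 was at 232 CPM (227 to 237) in the lateral plate or splanchnic mesoderm-like class, 161 CPM in the notochord-like class, 155 CPM in the surface ectoderm-like class and 43.9 CPM in the median group. COL4A6 was at 146 CPM (135 to 157) in the notochord-like class, 103 CPM in the surface ectoderm-like class, 89.7 CPM in the lateral plate or splanchnic mesoderm-like class and 32.2 CPM in the median group. The same 3 classes led for both chains, in a different order, and the endothelium-like class, second for COL4A1, was at 51.6 CPM for COL4A5 and 27.4 CPM for COL4A6. This pair also lies side by side, on chromosome 4 with a gap of 412 bases, and its Pearson r was 0.93. COL4A3 and COL4A4 did not reach the minimum, with 34 and 8 molecules in their highest groups. Summed type IV chains were at 733 CPM in the notochord-like class, 6.83-fold above the median. COL18A1, a basement membrane collagen whose end fragment is endostatin, was found in every group, from 40.0 CPM in the erythroid-like to 212 CPM in the median and 496 CPM (476 to 517) in the notochord-like class.

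**Figure D2:**
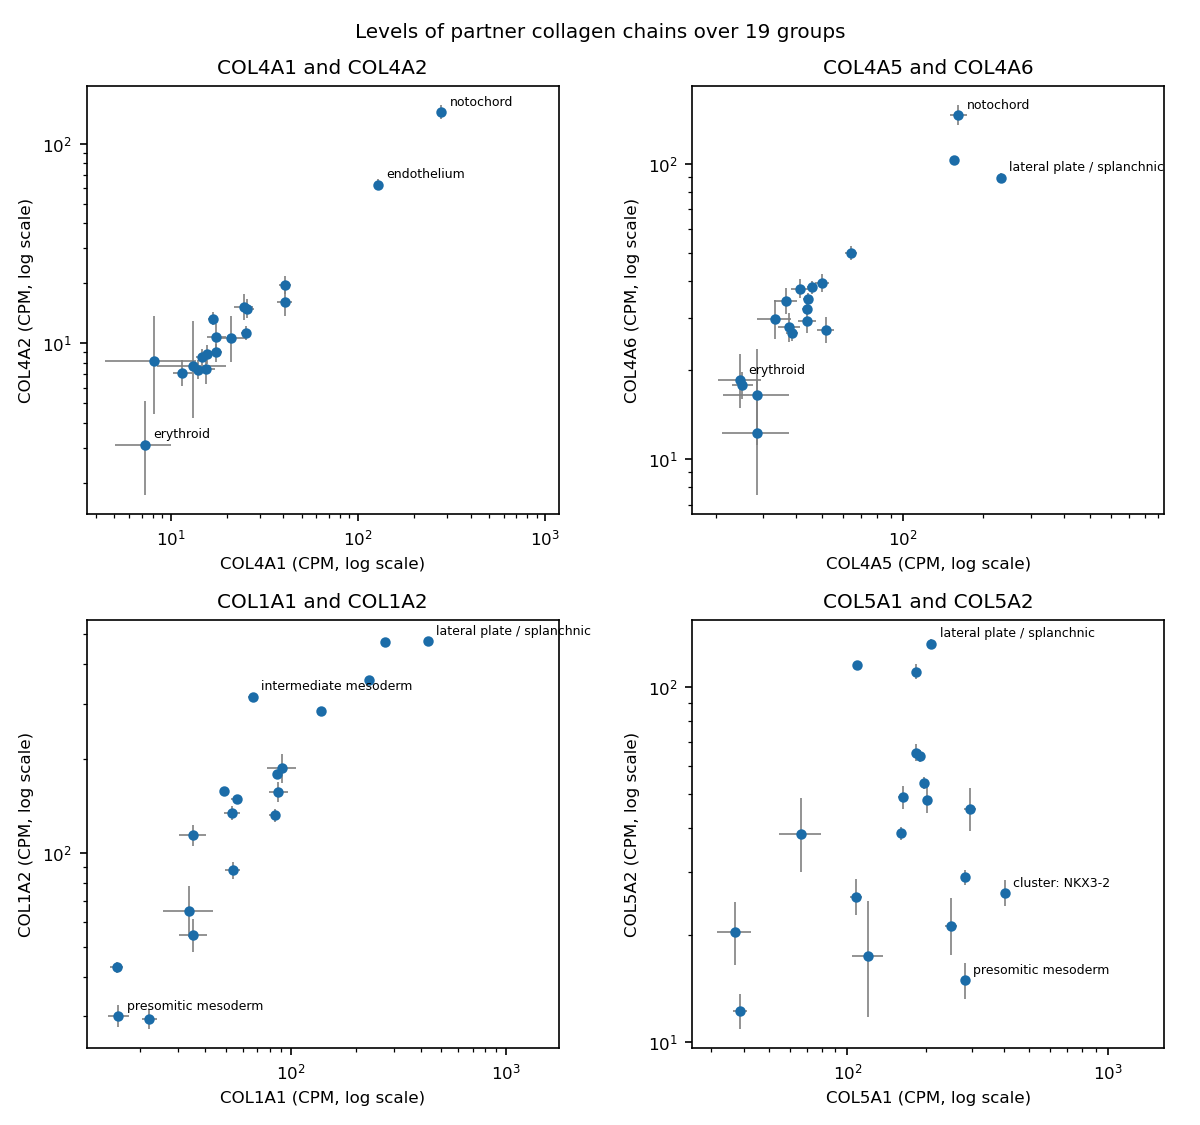
Levels of 4 pairs of collagen chains in 19 groups (CPM on log axes, exact Poisson 95% intervals as bars), 1 point per group. COL4A1 with COL4A2, COL4A5 with COL4A6 and COL1A1 with COL1A2 lie along a line (Pearson r of log2 levels 0.97, 0.93 and 0.92), and COL5A1 with COL5A2 do not (0.25).

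The other chains highest in the notochord-like class were LAMB1, LAMB4 and ITGB1, of which LAMB4, at 12.1 CPM and 8.17-fold over the median, was restricted and the others were not. LAMB1 was at 299 CPM there, 288 CPM in the surface ectoderm-like class and 285 CPM in the endothelium-like class, with overlapping intervals. ITGB1, the beta chain shared by most matrix-binding integrins, was at 772 CPM (746 to 797) in the notochord-like class, 490 CPM in the median group and 223 CPM in the erythroid-like class, only 1.57-fold from median to highest. The notochord result depended on where the clustering drew the class. With another random seed, resolution 0.5, the members kept in the clustering or no mitochondrial limit, the MNX1-led cluster, here named neuromesodermal progenitor-like, took the name notochord-like too and the class grew to 647 to 789 cells. COL8A1 in that wider class was at 142 to 151 CPM and COL4A1 at 89.0 to 94.4 CPM. COL9A3 was at 26.7 to 29.1 CPM, and COL4A1, COL4A2, COL4A6, COL9A3, COL18A1, LAMB1, LAMB4 and ITGB1 were then highest in another group.

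**Figure D3:**
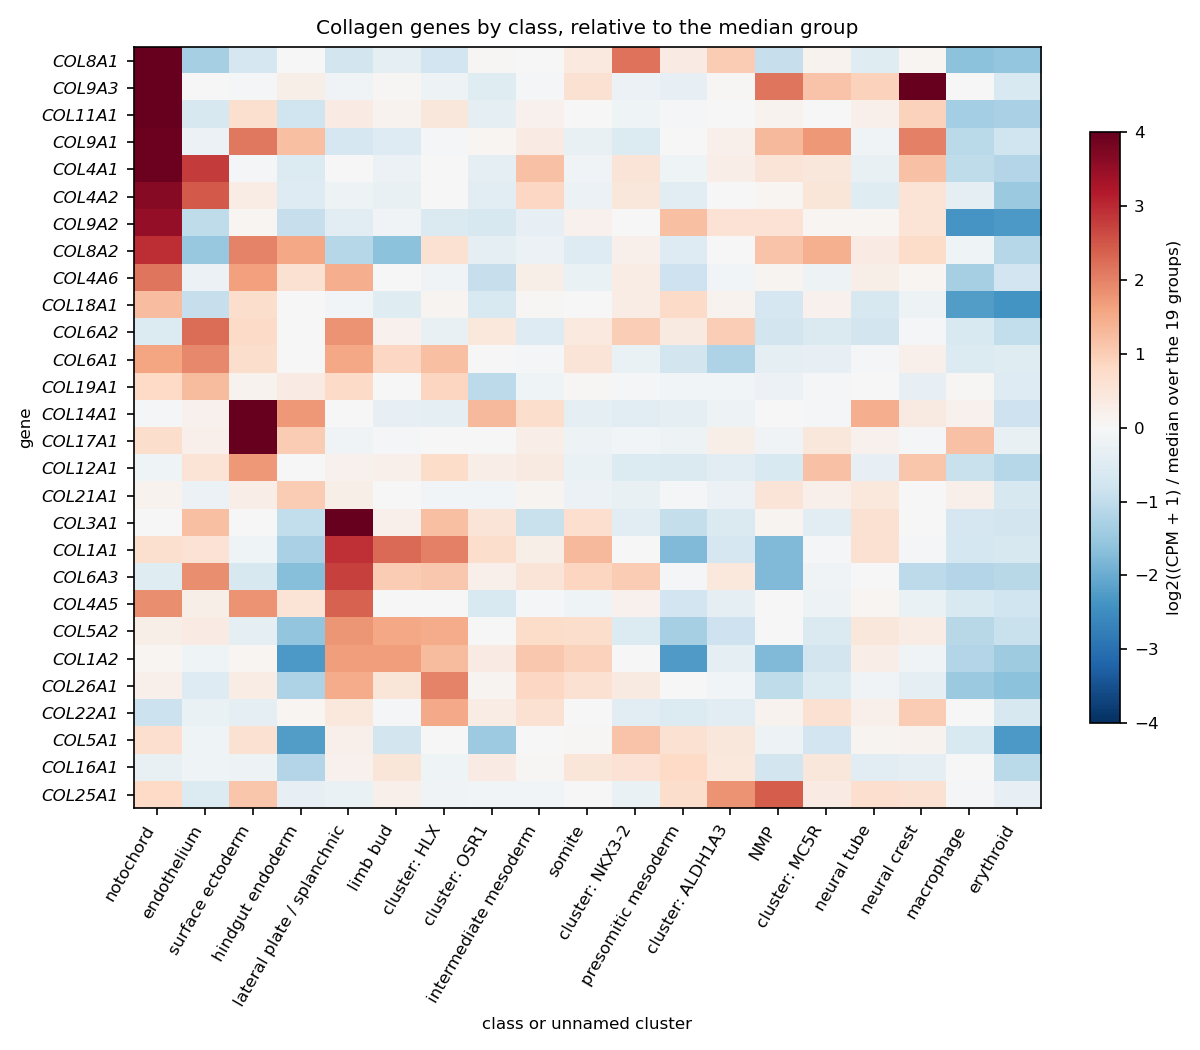
Level of the 28 collagens evaluated in each of 19 groups, as log2 of (CPM + 1) over the median group (colour), ordered by the group in which each was highest, with colours saturated at a size of 4 and NMP for neuromesodermal progenitor-like. A block of 10 genes is highest in the notochord-like class, and COL3A1, COL1A1, COL1A2, COL5A2, COL6A3 and COL4A5 are highest in the lateral plate or splanchnic mesoderm-like class.

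The lateral plate or splanchnic mesoderm-like class, which holds the mesoderm around the gut and the body wall, was highest for 6 members, all collagens (10.9% of members against 5.42% of genes). They were interstitial types, apart from COL4A5 of the basement membrane, described above. COL1A1, the major chain of type I collagen, was at 431 CPM (425 to 438) there, 272 CPM in the limb bud mesenchyme-like class, 231 CPM in the HLX-led cluster, 55.9 CPM in the median group and 15.6 CPM in the neuromesodermal progenitor-like class. Its partner COL1A2 was at 474 CPM (467 to 481) there and 473 CPM in the limb bud mesenchyme-like class, with overlapping intervals, 148 CPM in the median group and 29.3 CPM in the hindgut endoderm-like class. Both type I chains were thus high in mesenchyme and low in progenitors and gut, and their Pearson r was 0.92. The ratio of COL1A1 to COL1A2 nonetheless ran from 0.21 in the intermediate mesoderm-like class to 0.909 in the lateral plate or splanchnic mesoderm-like class.

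COL3A1, the chain of type III collagen found in elastic organs, was the more selective one. It was at 180 CPM (176 to 184) in the lateral plate or splanchnic mesoderm-like class, 21.9 CPM in the HLX-led cluster, 21.7 CPM in the endothelium-like class, 10.5 CPM in limb bud mesenchyme-like cells and 8.88 CPM in the median group. This was 20.3-fold (16.6 to 25.01) above the median, and limb bud mesenchyme, which shared the high COL1A2, did not share it. After thinning, 36.7% of lateral plate or splanchnic mesoderm-like cells held a COL3A1 molecule, against 9.67% of endothelium-like and 1.58% of erythroid-like cells. COL3A1 neighbours COL5A2 on chromosome 7, 6434 bases apart. COL5A2, a chain of the type V collagen that starts fibrils, was at 133 CPM (129 to 136) in the lateral plate or splanchnic mesoderm-like class, 116 CPM in limb bud mesenchyme-like cells and 38.7 CPM in the median group.

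The type V partner COL5A1 did not follow COL5A2. It was at 404 CPM (395 to 412) in the NKX3-2-led cluster, 296 CPM in the notochord-like class, 284 CPM in the surface ectoderm-like class, 283 CPM in the presomitic mesoderm-like class, 184 CPM in the median group and 36.9 CPM in the erythroid-like class. Over the 19 groups the 2 chains had a Pearson r of 0.25, and the ratio of COL5A1 to COL5A2 ran from 0.944 in the limb bud mesenchyme-like class to 19.0 in the presomitic mesoderm-like class. The NKX3-2-led cluster had 7 somite markers at least 2-fold up but a sclerotome gene, NKX3-2, in the lead.

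Type VI collagen, which forms beaded filaments near cell surfaces, had its highest levels in mesoderm, vessels and, for COL6A1, notochord-like cells. COL6A2 was also at least 2-fold above the median group in the surface ectoderm-like class. COL6A3 was at 154 CPM (151 to 158) in the lateral plate or splanchnic mesoderm-like class, 82.7 CPM in the endothelium-like class and 22.1 CPM in the median group. COL6A1 reached 11.0 CPM (9.35 to 12.9) and COL6A2 10.3 CPM (8.69 to 12.1) in the endothelium-like class, with 8.33 and 7.39 CPM in the lateral plate or splanchnic mesoderm-like class. COL6A1 was second in the notochord-like class at 8.41 CPM (5.98 to 11.5), within counting error of the endothelium-like class. COL26A1, which encodes a matrix protein with short collagen repeats, was at 172 CPM (166 to 179) in the HLX-led cluster, 120 CPM in the lateral plate or splanchnic mesoderm-like class and 42.4 CPM in the median group. That cluster carried 5 lateral plate markers but was led by HLX and TCF21. COL22A1, known from tissue junctions, was highest there too, at 26.6 CPM.

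The surface ectoderm-like class, the epithelium that covers the tail and the limb buds, was the highest group for 12 members (21.8%, against 8.33% of all genes). At least 2-fold above the median group were 20 members, against 11.3% of genes. The 12 were 3 collagens, 5 laminins and 4 integrins, and among them stood the chains of the hemidesmosome, the junction that anchors the basal cells of skin to their basement membrane. COL17A1, its transmembrane collagen (chromosome 6, 24919985 to 24959891), was at 83.0 CPM (80.6 to 85.4) in this class, 6.39 CPM in the macrophage-like class, 2.26 CPM in the median group and 1.66 CPM in the erythroid-like class, 36.8-fold (26.5 to 52.6) above the median. After thinning, 26.1% of surface ectoderm-like cells held a COL17A1 molecule, against 0.526% of erythroid-like cells. LAMA3, the alpha chain of the laminin of this junction, was at 19.3 CPM (18.1 to 20.4), against 6.39 CPM in the macrophage-like class and 0.872 CPM in the median group. LAMB3, a beta chain of the same laminin, was at 1.08 CPM (0.83 to 1.38), and with 2 molecules in the median group its ratio was 7.52 with a counting interval of 2.0 to 63.5.

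The integrin of the same junction pairs ITGA6 with ITGB4. ITGA6 was at 105 CPM (102 to 107.4) in the surface ectoderm-like class, 66.8 CPM in the neural crest-like class, 21.5 CPM in the median group and 4.68 CPM in the limb bud mesenchyme-like class. ITGB4 was at 5.42 CPM (4.83 to 6.05), against 2.29 CPM in the hindgut endoderm-like class and 0.496 CPM in the median group. COL17A1, LAMA3 and ITGB4 thus had the same first class. Over the 19 groups COL17A1 had a Pearson r of 0.93 with LAMA3 and 0.76 with ITGB4. The Spearman correlations were 0.70 and 0.23, so by rank COL17A1 and ITGB4 were only weakly alike. ITGA3, which also binds laminin, was at 30.9 CPM (29.5 to 32.4) and 7.01 CPM in the median group. ITGA2, a collagen receptor, was at 16.0 CPM and did not differ beyond counting error from the neural tube-like class at 14.8 CPM. Of the broader laminins, LAMA5, the alpha chain of many epithelial basement membranes, was at 101 CPM (98.3 to 104) here and 47.0 CPM in the median group, and LAMC1, the gamma chain of most laminins, was at 20.4 CPM here and 14.1 CPM in the median group.

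COL14A1, a collagen that attaches to fibril surfaces, was the other member nearly limited to the surface ectoderm-like class. It lies on chromosome 2 (135791057 to 135911837) and was at 128 CPM (125 to 131), against 12.5 CPM in the hindgut endoderm-like class, 3.02 CPM in the median group and 1.24 CPM in the erythroid-like class. The ratio to the median was 42.5 (35.5 to 51.2). Its related collagen COL12A1 was at 40.8 CPM (39.2 to 42.5), 27.2 CPM in the MC5R-led cluster and 11.6 CPM in the median group.

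Within the surface ectoderm-like class the clusters differed widely. COL14A1 was at 283 CPM in the WNT7A-led cluster of 591 cells, 135 CPM in the OVAL-led, 81.2 CPM in the APOD-led, 20.9 CPM in the EN1-led and 8.03 CPM in the CBLN2-led cluster. WNT7A marks dorsal and EN1 ventral limb ectoderm, so the fibril-associated collagen followed the cluster with the dorsal gene. ITGB4 split in the same direction, at 12.7 CPM in the WNT7A-led and 0.974 CPM in the EN1-led cluster, as did LAMA3 at 36.9 and 11.3 CPM. COL17A1 and ITGA6 divided them far less, at 129 against 97.1 CPM and at 144 against 125 CPM. COL14A1 was among the 10 leading genes of the WNT7A-led and APOD-led clusters. The APOD-led cluster had a median of 53813 molecules per cell, more than the 24882 of the WNT7A-led one. Its surface ectoderm markers summed to 1209 against 2413 CPM. Its somite markers summed to 1065 against 91.6 CPM and its limb bud markers to 775 against 216 CPM. In the EN1-led cluster limb bud markers summed to 610 CPM. The part of other cells' RNA in the levels of these clusters was not tested.

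**Figure D4:**
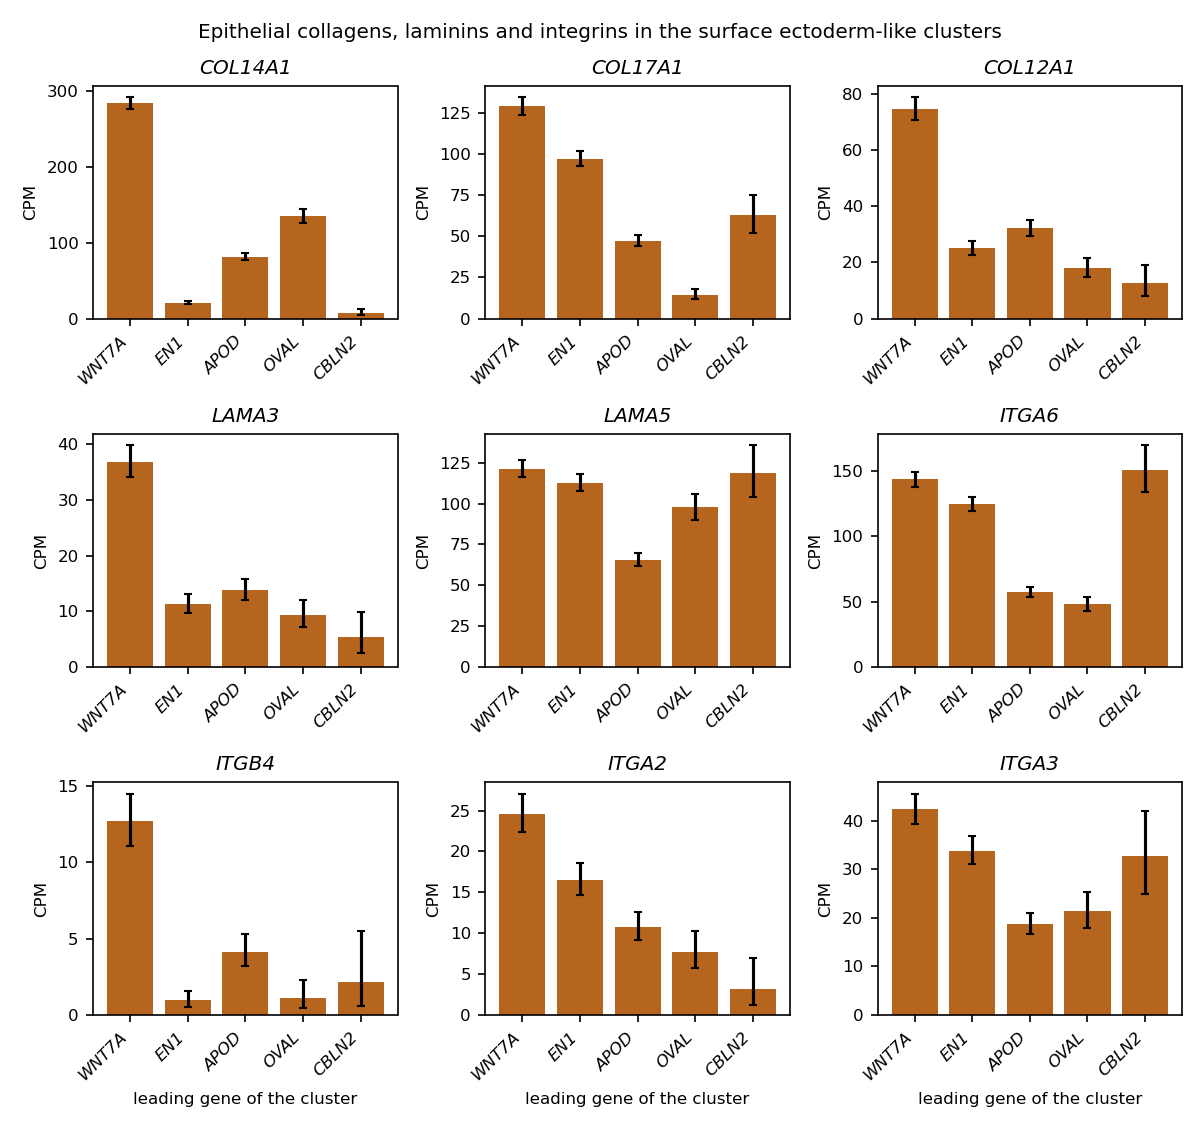
Level (CPM, bars from 0 with exact Poisson 95% intervals) of 9 epithelial collagen, laminin and integrin genes in the 5 clusters of the surface ectoderm-like class, each named by its leading gene. COL14A1 falls from 283 CPM in the WNT7A-led to 20.9 CPM in the EN1-led cluster, while ITGA6 is at 144 and 125 CPM.

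The endothelium-like class, 362 cells with CDH5 in the lead, was highest for 7 members (12.7% against 10.6% of genes, a share near the background), and 18 members were at least 2-fold above the median group there, against 10.8% of genes. The integrin alpha chains among them had the clearest values. ITGA9, a receptor for tenascin-C and VCAM1, was at 327 CPM (317 to 336) there, 133 CPM in the intermediate mesoderm-like class, 124 CPM in the lateral plate or splanchnic mesoderm-like class and 41.4 CPM in the median group. ITGA8, which with ITGB1 binds nephronectin, was at 98.4 CPM (93.2 to 104), 79.6 CPM in the HLX-led cluster, 20.7 CPM in the median group and 3.75 CPM in the presomitic mesoderm-like class. ITGA1, a receptor for collagen, was at 61.0 CPM (56.9 to 65.2), 31.1 CPM in limb bud mesenchyme-like cells and 6.61 CPM in the median group. ITGA1 and ITGA2 bind similar ligands and lie 14173 bases apart on chromosome Z, yet their levels had a Pearson r of -0.04 over the 19 groups. ITGA11 reached 3.93 CPM (2.96 to 5.12) in the endothelium-like class and did not differ beyond counting error from limb bud mesenchyme-like cells at 2.64 CPM. COL19A1 was at 6.72 CPM and not apart from the HLX-led cluster at 4.76 CPM. LAMA4, a laminin chain of vessel walls, was at 23.8 CPM here and 26.7 CPM (25.3 to 28.1) in the limb bud mesenchyme-like class, with overlapping intervals. LAMB4 was at 12.1 CPM in the notochord-like, 10.6 CPM in the endothelium-like and 10.1 CPM in the surface ectoderm-like class, also within counting error.

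The macrophage-like class, 60 cells, was highest for 5 integrin chains and for no collagen or laminin (9.09% of members against 9.67% of genes). ITGB2, the beta chain of leukocyte integrins (chromosome 7, 7210321 to 7222404), had 345 molecules in all cells, and 212 of these came from the 60 macrophage-like cells. Its level there was 123 CPM (107.1 to 141), and the next group, the presomitic mesoderm-like class, was at 1.13 CPM. The median group held 3 molecules, for a ratio of 775 with a counting interval of 262 to 3789. No molecule was found in 4 groups, among them the notochord-like class. After thinning, 46.7% of macrophage-like cells and no erythroid-like cell held an ITGB2 molecule. ITGB3, which with ITGAV binds vitronectin, was at 69.7 CPM (57.8 to 83.3), 19.6 CPM in the endothelium-like class and 3.71 CPM in the median group. ITGB5 was at 174 CPM (155 to 195), 96.0 CPM in the surface ectoderm-like class and 37.2 CPM in the median group. Their shared partner ITGAV was at 298 CPM (273 to 325), 190 CPM in the notochord-like class and 80.1 CPM in the median group. ITGA4, a receptor for VCAM1 and fibronectin, was at 49.4 CPM (39.4 to 61.0), within counting error of the MC5R-led cluster at 42.2 CPM. Erythroid markers summed to 354 CPM in the macrophage-like class and surface ectoderm markers to 250 CPM. The macrophage-like levels of COL17A1 and LAMA3 named above rest on 11 molecules each, and the part of other cells in them was not tested.

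**Figure D5:**
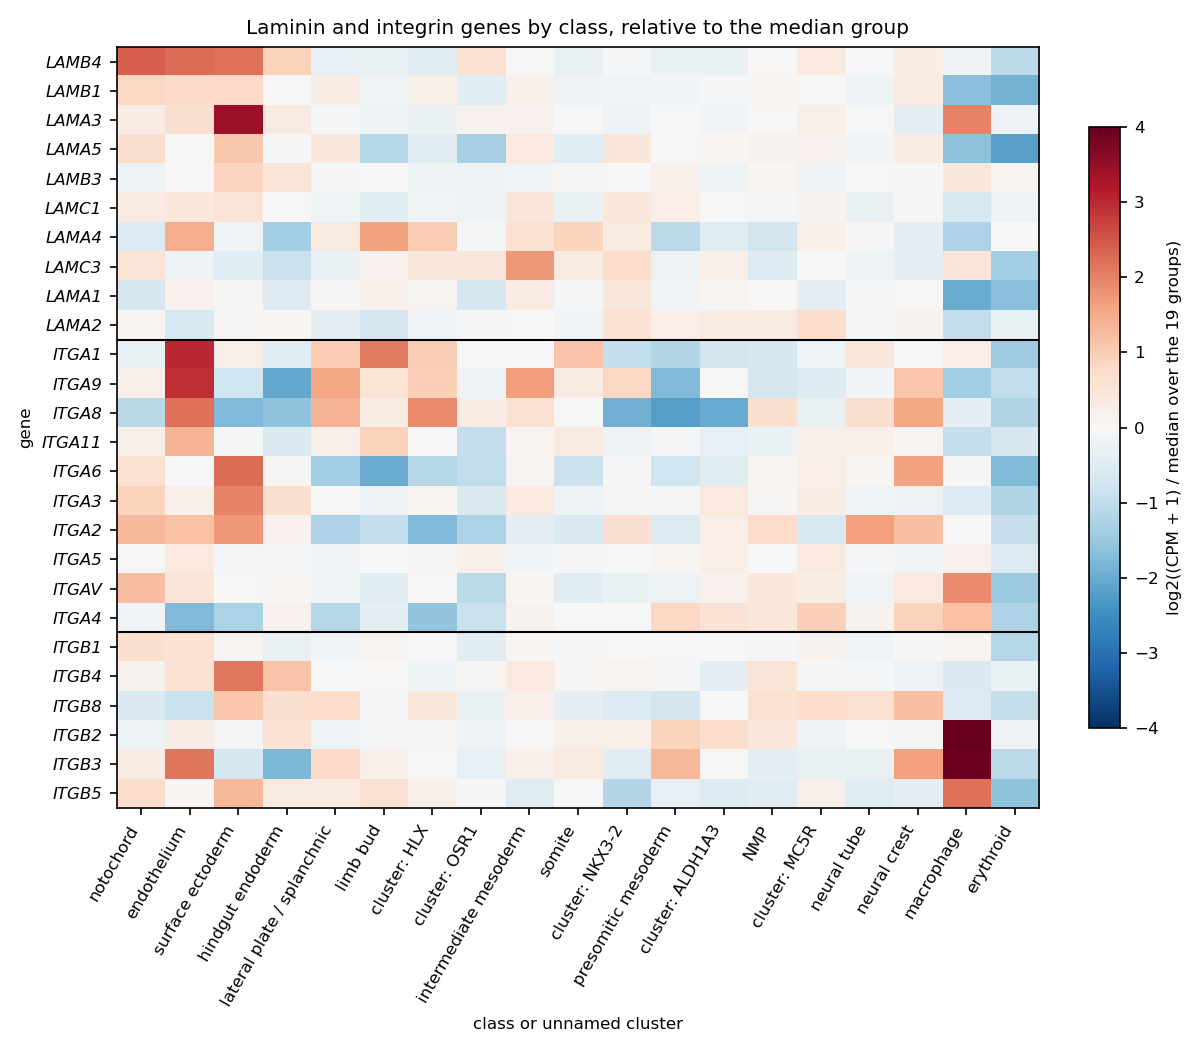
Level of 10 laminin, 10 integrin alpha and 6 integrin beta chains in each of 19 groups, as log2 of (CPM + 1) over the median group (colour); lines separate the 3 kinds of chain, and colours are saturated at a size of 4. ITGB2, ITGB3 and ITGB5 are highest in the macrophage-like class, ITGA1, ITGA8, ITGA9 and ITGA11 in the endothelium-like class, and LAMA3, ITGA6 and ITGB4 in the surface ectoderm-like class.

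Other classes were marked by single chains. COL25A1, a membrane-spanning collagen known from neurons, was at 36.6 CPM (35.0 to 38.3) in the neuromesodermal progenitor-like class. It was at 23.3 CPM in the ALDH1A3-led cluster and 5.97 CPM in the median group. The neuromesodermal progenitor-like class is named for the cells of the tail bud that feed both spinal cord and mesoderm. Its marker TBXT was at least 2-fold up in the TBXT-led, MNX1-led and HINTW-led clusters, and SOX2 in the STAC-led one. No cluster of the class had both up. Inside that class COL25A1 was at 88.3 CPM in the TBXT-led cluster and at 15.1 and 15.0 CPM in the STAC-led and MNX1-led clusters. Its level in the HINTW-led cluster of 123 cells is not given here. The TBXT-led cluster thus had the highest of the levels given. LAMC3 was at 9.37 CPM (8.04 to 10.9) in the intermediate mesoderm-like class, against 4.24 CPM in the NKX3-2-led cluster, and within the class at 12.8 CPM in the OSR1-led and 1.42 CPM in the LHX1-led cluster. In that OSR1-led cluster somite markers summed to 1431 CPM and sclerotome markers to 1353 CPM, above its intermediate mesoderm markers at 808 CPM, whereas the LHX1-led cluster had 321, 496 and 1815 CPM. The part of somite cells in the LAMC3 level was not tested. ITGB8, a partner of ITGAV, was at 27.6 CPM in the neural crest-like class and 26.2 CPM in the surface ectoderm-like class, which do not differ beyond counting error. COL21A1 was highest in the hindgut endoderm-like class at 4.81 CPM and COL16A1 in the presomitic mesoderm-like class at 5.75 CPM, neither of them restricted.

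A common set of chains was found in every group, though some were low in the macrophage-like and erythroid-like classes. LAMA1, the alpha chain of the early embryonic laminin, was at 62.9 CPM in the median group and 85.6 CPM (81.7 to 89.7) in the NKX3-2-led cluster, the highest. LAMA2 was at 6.51 CPM in the median group and 11.2 CPM in the MC5R-led cluster. ITGA5, the fibronectin receptor chain, ran from 4.56 CPM in the erythroid-like class to 9.73 CPM in the MC5R-led cluster, with 7.12 CPM in the median group. With LAMB1, LAMC1 and ITGB1 these chains, which can form a full laminin trimer and a full fibronectin receptor, stayed within 2-fold of the median at their highest. In the macrophage-like and erythroid-like classes LAMA1 was at 15.1 and 18.9 CPM. LAMB1 was at 51.7 and 44.4 CPM there, against 169 CPM in the median group. LAMA1 reached 2.78-fold with no mitochondrial limit and LAMB1 2.82-fold with each cluster taken by its number. Macrophage-like cells were at least 2-fold below the median for 22 of the 55 members (40.0%, against 20.1% of genes). Erythroid-like cells were at least 2-fold below the median for 38 of the 55 members (69.1%), while 36.9% of all genes were that low there. Haemoglobin made up 21.2% of erythroid-like molecules, which lowers the CPM of every other gene in that class. The counts of restricted members were the same with haemoglobin left out of the total. The erythroid-like class was the highest group for no evaluated member, so those counts could hardly change and do not bear on its low levels. The members at least 2-fold below the median there were not recounted without haemoglobin.

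The 9 members that did not reach the minimum were COL10A1, COL20A1, COL28A1, COL4A3, COL4A4, ITGA7, ITGB6, ITGB7 and LAMB2. Their molecules over all cells ran from 12 for LAMB2 to 544 for ITGB7. COL20A1 came nearest, with 44 molecules in the NKX3-2-led cluster, and just above the minimum stood ITGA11 with 55 and LAMB4 with 56. On the other threshold, ITGA2 with a ratio of 3.94 and ITGAV with 3.72 lay just below 4-fold, and COL26A1 with 4.07 and ITGA11 with 4.19 just above.

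Genes that work with these families were read in 4 lists. Of 12 basement membrane partners, 4 of 11 evaluated were restricted (36.4%, against 24.6% of all genes). FREM2, which ties epithelia to the basement membrane, was at 92.3 CPM in the intermediate mesoderm-like class and 5.18 CPM in the median group. NID1, which links laminin to type IV collagen, was at 223 CPM in the lateral plate or splanchnic mesoderm-like class and 30.8 CPM in the median group, while AGRN at 181 CPM and NID2 at 125 CPM were highest in the endothelium-like class and not restricted. SMOC1 reached 199 CPM in the NKX3-2-led cluster and SMOC2 109 CPM in the surface ectoderm-like class.

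Of the interstitial and other integrin ligands, 8 of 14 were restricted (57.1%, against 24.6% of all genes). POSTN, periostin, was at 1103 CPM (1073 to 1134) in the notochord-like class and 22.5 CPM in the median group, and VTN, vitronectin, at 118 and 7.55 CPM. SPP1, osteopontin, was at 161 CPM in the macrophage-like class and 2.07 CPM in the median group. Its receptors ITGAV and ITGB3 were highest in the macrophage-like class as well. That class held only 277 of the 7152 SPP1 molecules of all cells. SPP1 was also among the leading genes of the WNT7A-led and APOD-led clusters of the surface ectoderm-like class. FN1, fibronectin, was at 715 CPM (708 to 722) in the surface ectoderm-like class and 75.4 CPM in the median group. SPARC and FBLN1 were highest in the lateral plate or splanchnic mesoderm-like class at 502 and 307 CPM, and VCAN in the notochord-like class at 441 CPM.

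Of the genes that fold, cross-link and cut collagen, 11 of 26 were restricted (42.3%, against 24.6% of all genes). TIMP3, an inhibitor of matrix proteases, was at 1180 CPM in the notochord-like class and 94.6 CPM in the median group, and TLL1, a procollagen protease, at 222 and 15.6 CPM. LOXL1, a cross-linking enzyme, was at 368 CPM in the presomitic mesoderm-like class and 71.6 CPM in the median group. The folding enzymes P4HB, PPIB and P4HA1 were broad, from 1.48-fold to 1.78-fold at their highest, and PLOD2, a lysyl hydroxylase, reached 549 CPM in the NKX3-2-led cluster, where COL5A1 was highest too. TLL2 was at 12.2 CPM in the surface ectoderm-like class. Integrin adaptors inside the cell were the least restricted list, with 3 of 19 (15.8%, under the 24.6% of all genes). Among them were TLN1 at 349 CPM in the macrophage-like class and FERMT1 at 105 CPM in the surface ectoderm-like class. PARVB, FERMT2, VCL and LIMS1 stayed between 1.48-fold and 1.81-fold at their highest.

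The cells of 3 lipid barcodes could be set side by side. A cell was given to a barcode with at least 10 of its molecules and 3 times those of every other, which gave 1416 cells of SBC2, 4373 of SBC3 and 1551 of SBC7. Only 4 classes had at least 50 cells of each. For each of the 55 members, the highest of the 4 classes within each barcode was set against the highest of the 4 over all cells kept. It was the same class in all 3 barcodes for 40 members, in 2 barcodes for 7 and in 1 barcode for 8. The same count over all genes is not given here, so these numbers do not set the members apart. All cells kept include those of the barcodes, so part of the agreement is built in. For ITGB2 in SBC2 the class was taken at 0 molecules. The order was taken among these 4 classes alone, at any number of molecules, so the notochord-like, endothelium-like and macrophage-like levels were not examined within barcodes. COL14A1 in the surface ectoderm-like class was at 147, 133 and 137 CPM, and LAMA3 at 18.4, 17.7 and 18.8 CPM, in SBC2, SBC3 and SBC7, with overlapping intervals for LAMA3.

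Few values differed at least 2-fold between barcodes, but in each of the 4 classes the share of members was above that of all genes. Taking members with at least 100 molecules in their highest barcode, 11 of 129 values differed at least 2-fold between barcodes. In the lateral plate or splanchnic mesoderm-like class these were 3 of 33 members (9.09%), against 3.74% of genes. ITGA8 there was at 64.1, 52.4 and 29.5 CPM in SBC2, SBC3 and SBC7. COL1A1 also fell in that order without reaching 2-fold, at 521, 393 and 335 CPM. ITGB3 and COL8A2 were the others. In the limb bud mesenchyme-like class COL6A1 and ITGA4 differed, 2 of 33 (6.06%) against 3.18% of genes, and ITGA4 was at 9.26, 16.0 and 18.9 CPM. In the surface ectoderm-like class it was ITGB4 and again ITGA4, 2 of 36 (5.56%) against 2.88% of genes, with ITGA4 at 4.32, 9.66 and 10.3 CPM. In both of these classes ITGA4 was lowest in SBC2.

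In the neural tube-like class 4 of 27 members (14.8%) differed, against 2.02% of genes. COL3A1 was highest in the cells of SBC2, at 39.7 CPM (34.0 to 46.1), and stood at 13.1 CPM in those of SBC3 and 13.6 CPM in those of SBC7. COL6A3 was at 45.03, 19.9 and 27.1 CPM. ITGA8 was at 47.6, 28.0 and 22.3 CPM and COL14A1 at 5.11, 10.7 and 8.88 CPM. The summed lateral plate markers of these neural tube-like cells were at 823, 552 and 728 CPM in SBC2, SBC3 and SBC7, their limb bud markers at 996, 909 and 1227 CPM and their surface ectoderm markers at 681, 264 and 410 CPM. The lateral plate and surface ectoderm markers were highest in SBC2, as COL3A1 was, and the limb bud markers in SBC7. The part of other cells' RNA in these values was not tested. Neural tube-like clusters differed in these genes and markers as well. In the NKX6-2-led cluster, with a median of 57524 molecules per cell, COL1A1 was at 135 CPM and COL3A1 at 21.1 CPM, and lateral plate and limb bud markers summed to 879 and 1329 CPM. In the OLIG2-led cluster, with a median of 28801 molecules, COL1A1 was at 11.8 CPM and COL3A1 at 3.72 CPM, and the same markers summed to 52.1 and 187 CPM. What the barcodes stand for is not given, so none of these differences can be read as an effect of homocysteine.

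The shallow barcodes left out gave a further view of the same genes. In the 33581 barcodes with under 500 genes, COL25A1 was at 81.8 CPM, LAMA1 at 105 CPM and COL22A1 at 27.1 CPM, each above its highest group, as for 3 of 55 members (5.45%) and 7.78% of all genes. For COL22A1 the difference was within counting error, with 26.6 CPM (24.1 to 29.2) in its highest group. In RefSeq, COL25A1 spans 299.7 kb, COL22A1 231 kb and LAMA1 99.2 kb. Across the 55 members, gene span and the ratio of the level in these barcodes to that in the kept cells had a Spearman correlation of 0.61, a description across genes that are not independent. The authors' counts include intronic reads, and the part of unspliced RNA in this relation was not tested.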

How the data were processed

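Cells of the posterior end of chicken embryos were captured together, and per the file headers the authors counted molecules with the BD Rhapsody pipeline 1.11 on GRCg7b with Ensembl 107, with intronic reads included and the cell number set to exactly 60000. What the authors deposited are raw counts, each the number of molecules of 1 gene in 1 cell. Whether strand was used in the counting is not given in the sources used here. The filters are given in the report. Counts were scaled to 10000 per cell and log-transformed. Cells were clustered by Leiden on 2000 variable genes without the members, 30 components and 15 neighbours at resolution 1 (scanpy 1.11.5, leidenalg 0.10.2, igraph 0.11.9, Python 3.11.15). A cluster took the class with the highest mean marker fold if 3 markers were at least 2-fold up and in 10% of its cells, and stayed unnamed if another class held more of its 10 leading genes or if it was shallow with none of its own markers among them. Molecules were summed per class and divided by the class total. Exact Poisson intervals and the exact conditional intervals of ratios, at 95%, cover counting error only, and depth limits most the classes with few cells. Scrublet marked 18.5% of cells as doublets and none was removed. Named are restricted members, the 5 most abundant of each kind, known partner chains and, from 4 lists of partner genes, the 5 most abundant and the 3 with the largest ratio. Members, lists and markers were chosen with earlier results of these data known. The calculation of ratios was tested on simulated data. Some genes that meet the rule for naming are counted but not reported here by name. RefSeq gave positions for 63 of 64 members.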

Additional observations from a re-analysis of the deposited data

Results flagged for a closer look

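ITGA2B, the platelet integrin chain, has a symbol that the rule for members does not take in. It was at 16.0 CPM in the shallow OSR1-led cluster, its highest group, and 8.52 CPM in the median group, and stood among that cluster's 10 leading genes. The lipid barcode table held 18889 molecules of SBC4, 4242 of SBC5 and 4587 of SBC8 over all cell barcodes. No cell was given to any of these 3 barcodes. Their molecule numbers are small beside the 8915523 molecules of SBC2, 12104007 of SBC3 and 7166491 of SBC7.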

How the results depend on the processing

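Of 17 alternatives, 12 were planned and 5 were chosen after seeing the data. Restricted members (19 collagens, 5 laminins, 10 integrins) numbered 10, 2 and 3 with at most 10% mitochondrial molecules, 7, 2 and 4 with the cells of SBC2 alone and 5, 2 and 3 with those of SBC7 alone, where 8 and 7 groups were left. Restricted laminins numbered 3 with each cluster taken by its number, 1 with each cell thinned to 4000 molecules and 1 with a minimum of 200 molecules. All other counts stayed within 1.5 times. Under all 17 alternatives 16 of the 34 restricted members kept 4-fold throughout, and COL8A1, COL4A1, COL11A1, COL1A1 and ITGA9 were among those that did not. Without the alternatives for mitochondria and single barcodes it was 28 of 34, and COL26A1, COL4A6, COL9A2, ITGA11, ITGA8 and ITGB5 did not in at least 1. The highest-to-median ratio of the summed levels ran from 1.48 to 3.92 for collagens, 1.5 to 2.32 for laminins and 1.09 to 2.01 for integrins. Of 675 values of 46 named members, 505 had the same highest class. Without the 10% of cells with the highest Scrublet score, the WNT7A-led ectoderm was unnamed and took the first place for COL14A1, COL17A1, LAMA3, ITGA6 and ITGB4. COL1A2 was highest in a group other than the lateral plate or splanchnic mesoderm-like class under 11 alternatives. These include each cluster taken by its number, where no class name could match. Barcodes called at 10 times every other could not be compared, with 28 SBC2 and 6 SBC7 cells in the smallest class. No paired analysis was possible because there is 1 pooled sample and no result comes from a test.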
